A study of Mus musculus with 2 samples.

Results

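The genes described here are 8 members of the retinoic acid and vitamin D pathways, Rarb, Rarg, Rxra, Crabp1, Crabp2, Aldh1a3, Vdr, and Cyp24a1, taken by their symbols from the 32285 genes listed for 2 single-cell libraries. The libraries were made from tdTOMATO-positive keratinocytes sorted from the dermal fraction of the back skin of mice at postnatal day 1, with Chromium 3′ v3.1 chemistry, in which each captured mRNA carries a unique molecular identifier (UMI). The genotype is given as WT for 1 library and as PADI4 cKO for the other, both in batch 1 and without treatment, and the shared protocol and design text name K14-Cre Padi4 fl/fl skin carrying tdTOMATO for both. K14-Cre acts in keratinocytes of the epidermis and the hair follicle (HF), so other skin cells should keep Padi4. The number of mice behind each library was not stated, and with 1 library per genotype no difference between genotypes could be tested.

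Retinoic acid is made from retinol by retinol dehydrogenases and then by retinaldehyde dehydrogenases such as Aldh1a3, is carried in the cytoplasm by Crabp1 and Crabp2, and acts through the receptors Rara, Rarb, and Rarg, which bind DNA paired with an RXR such as Rxra. The vitamin D receptor Vdr also pairs with an RXR, and Cyp24a1, the 24-hydroxylase that inactivates the hormone, is its best known target gene. In skin, retinoids control keratinocyte differentiation, and Vdr is required for the hair cycle, since mice and patients without it lose their hair.

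Rarb and the retinoic acid hydroxylase Cyp26a1 are classical retinoic acid targets, and the promoters of both carry a response element with the core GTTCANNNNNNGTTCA, a direct repeat of receptor half-sites known as DR5. On either strand this core was found in 25 of 32851 RefSeq promoter windows of 300 bases (250 before the start site and 50 after it; 0.0761%). Of the members, 5 had a window (7 windows in all), and the core was found in that of Rarb alone. Crabp2, Aldh1a3, and Cyp24a1 had none. Among the 50 genes of the pathway lists with a window, it was found in that of Cyp26a1 alone. The repeat GGTCANNNNNNGGTCA and the DR3 cores GTTCANNNNGTTCA and GGTCANNNNGGTCA, the spacing known for Vdr, were present in 0.1%, 0.0517%, and 0.0457% of all windows and in none of the members. The Rarb and Cyp26a1 windows are given from GRCm38.p6, 5′ to 3′ on the strand of the gene, with the repeat in capitals, since they share the element but not the level of mRNA described further on.
Rarb, chr14:16575427-16575726, minus strand: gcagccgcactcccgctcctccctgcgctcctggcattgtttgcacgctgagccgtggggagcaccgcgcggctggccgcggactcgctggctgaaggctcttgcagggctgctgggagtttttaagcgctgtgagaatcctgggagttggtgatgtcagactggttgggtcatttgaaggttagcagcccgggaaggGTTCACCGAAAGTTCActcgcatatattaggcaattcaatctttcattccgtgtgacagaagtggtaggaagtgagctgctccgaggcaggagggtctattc
Cyp26a1, chr19:37697558-37697857, plus strand: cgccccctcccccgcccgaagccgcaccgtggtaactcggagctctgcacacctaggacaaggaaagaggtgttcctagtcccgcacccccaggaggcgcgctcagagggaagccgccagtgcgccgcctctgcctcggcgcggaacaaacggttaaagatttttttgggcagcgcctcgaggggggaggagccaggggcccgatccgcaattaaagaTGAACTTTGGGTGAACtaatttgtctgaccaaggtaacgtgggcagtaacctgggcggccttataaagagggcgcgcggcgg
The Rarb repeat lay on the strand of the gene and ended 36 bases before the start site, and the Cyp26a1 repeat lay on the opposite strand and ended 16 bases before it.

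In GRCm38 coordinates, Rarb spans chr14:16430839-16819156 on the minus strand and overlaps Top2b on the opposite strand over 4624 bases. Cyp24a1 spans chr2:170482708-170497145 on the minus strand and shares 718 bases with Pfdn4 on the opposite strand. Whether the counting used the strand was not stated. The correlation across 17 groups of cells between Rarb and Top2b was 0.28 in PADI4 WT and 0.26 in the library labelled PADI4 cKO, and that between Cyp24a1 and Pfdn4 was 0.45 and 0.57. The other members were Rarg (chr15:102234938-102257517, minus), Rxra (chr2:27676440-27762957, plus), Crabp1 (chr9:54764748-54773110, plus), Crabp2 (chr3:87948666-87953376, plus), Aldh1a3 (chr7:66390890-66427517, minus), and Vdr (chr15:97854425-97910630, minus), and no listed gene overlapped any of them. All 8 are protein-coding.

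Padi4 itself did not separate the libraries. It had 98 UMIs in the epithelial cells of PADI4 WT and 92 in those of the other library, a log2 ratio of −0.12 (95% interval −0.54 to 0.31), and 3′ tags check a label only where they fall in the deleted exons, whose position was not used here. That library is therefore called the library labelled PADI4 cKO. The libraries held 143938990 and 143945294 UMIs, of which 7994 and 7356 epithelial cells with 127233037 and 129451007 UMIs were used, and 14 barcodes occurred in both. They also differed in their sex-linked transcripts. In PADI4 WT, 26.0% of epithelial cells had Xist UMIs and none of 4 Y-linked genes (Uty, Eif2s3y, Kdm5d, and Ddx3y), and 62.4% had only Y-linked UMIs. In the library labelled PADI4 cKO these shares were 98.3% and 0%.

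Clustering placed the epithelial cells in 20 groups, of which 17 had at least 50 cells in each library and were compared. The members and the pathway genes were left out of the clustering. Groups were named where marker genes allowed it. These were 2 groups like the lower proximal cup (LPC), which holds proliferating progenitors, led by Frem1/Mme and by Plcxd3/Phactr1, 2 like the germinative layer (GL), from which the inner HF layers arise, led by Kit/Myb and Nr4a3/Dcn, and 5 like the outer root sheath (ORS). A group each was like the inner root sheath (IRS), the hair cortex (Cx), and the sebaceous gland (SG). The 5 groups left without a name were led by Tagln/Olfml2b, Ednra/Krtap8-1, Aldh3a1/Sema3a, Dio2/Ncald, and Krt75/Wnt11. The Ednra/Krtap8-1 group held 6 GL markers and 3 markers of the medulla (Med). Both LPC-like groups also held GL markers, 4 beside 6 LPC markers in Frem1/Mme and 3 beside 4 in Plcxd3/Phactr1. The Tagln/Olfml2b group had the muscle markers Acta2, Tagln, and Myl9 (Tagln at 1476 and 1605 CPM) together with Krt5 (1353 and 1409 CPM), Krt14, and the stem cell marker Lgr5 (538 and 584 CPM), whereas the pericyte and smooth muscle markers Rgs5 and Myh11 were under 1 CPM. Levels are given as UMIs per 1000000 UMIs of a group (CPM), with exact Poisson intervals at 95% that cover counting error only, the value of PADI4 WT first and that of the library labelled PADI4 cKO second. The intervals leave out the spread between cells.

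Vdr differed strongly between groups. It was highest in the Tagln/Olfml2b group, at 526 CPM (511 to 541) in PADI4 WT and 602 CPM (585 to 620) in the library labelled PADI4 cKO. The LPC-like Plcxd3/Phactr1 group followed with 387 and 439 CPM and the ORS-like Pi15/Slc35f1 group with 296 and 355 CPM. These 3 groups held the same ranks in both libraries, and each step between them was larger than the counting error. Behind them came a gap to 146 CPM in PADI4 WT, where the LPC-like Frem1/Mme (146 CPM), ORS-like Smoc1/Tafa1 (145 CPM), and Dio2/Ncald groups did not differ from one to the next beyond counting error. The same 3 groups and the ORS-like Tgfb2/Lmo3 group formed that step in the library labelled PADI4 cKO, between 149 and 161 CPM. Vdr was low in the inner layers of the HF and also in the SG-like group (34.0 and 48.8 CPM). It was at 26.8 and 35.4 CPM in the IRS-like group, at 49.3 and 47.2 CPM in the Cx-like group, and lowest in the GL-like Nr4a3/Dcn group, at 23.7 (20.8 to 26.8) and 30.0 (27.2 to 33.0) CPM. The highest level was thus 22.2 times the lowest in PADI4 WT and 20.1 times in the other library, and the lowest was above the 14.6 and 10.0 CPM that free RNA could contribute. The Tagln/Olfml2b group exceeded all other epithelial cells by 4.80-fold (4.64 to 4.96) and 4.70-fold (4.55 to 4.86), and 97.7% and 99.5% of its cells had a Vdr UMI, compared with 31.0% and 37.5% in the GL-like Nr4a3/Dcn group. Thinned to 2000 UMIs per cell these shares were 59.2% and 64.7% against 4.82% and 6.88%. The order of the 17 groups was alike in both libraries (Spearman 0.96).

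Rarb had a narrower pattern. Its level was 23.0 CPM (20.4 to 25.8) and 24.8 CPM (22.5 to 27.3) in the LPC-like Frem1/Mme group, 18.8 CPM (16.7 to 21.1) and 23.3 CPM (21.2 to 25.7) in the GL-like Kit/Myb group, and 9.99 CPM and 10.3 CPM in the Ednra/Krtap8-1 group. The first of these differed from the second beyond counting error in PADI4 WT only. In the remaining groups it was at most 5.51 CPM in PADI4 WT, and in the library labelled PADI4 cKO at most 6.89 CPM apart from the SG-like group, whose 10.2 CPM came from 2 of 53 cells with 10 UMIs. Free RNA could account for up to 1.77 CPM and 0.793 CPM. When cells were instead gated directly on marker UMIs, the LPC gate had 3.34 and 2.86 CPM and the GL gate 14.0 and 17.3 CPM, so the first rank of the LPC-like group rests on the clustering. The clustered Frem1/Mme group lay 3.94-fold (3.42 to 4.52) and 3.54-fold (3.14 to 3.98) above the other epithelial cells. Outside the high groups the order was not stable between libraries (Spearman over 17 groups 0.38).

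Within these groups Rarb UMIs were concentrated in few cells. In the LPC-like Frem1/Mme group 92 of 628 cells (14.6%) and 109 of 820 cells (13.3%) had any, against 7 of 526 (1.33%) and 6 of 665 (0.902%) in the Dio2/Ncald group, at median depths of 18168 and 18910 UMIs per cell against 11286 and 12475. The variance of the count per cell was 5.00 and 7.77 times its mean, and the tenth of cells with most UMIs held 90.1% and 93.7% of them. Cells with at least 3 Rarb UMIs numbered 42 and 58 in this group and 44 and 56 in the GL-like Kit/Myb group. Because Rarb was far higher in a small cluster of melanocytes, the melanocyte markers Dct, Pmel, Tyrp1, Mlana, and Tyr were summed in these cells. The sum was 33.2 and 22.8 CPM in the LPC-like group, with Tyr and Tyrp1 at 0 in both libraries, and 27.1 and 26.2 CPM in the GL-like group, compared with 14548 and 9050 CPM in the melanocytes. Cells of the same groups without Rarb had 16.7 and 14.7 CPM and 28.4 and 29.6 CPM. The Ednra/Krtap8-1 group, with Rarb at 9.99 and 10.3 CPM, was not divided in this way. Over all its cells the marker sum was 61.2 and 88.8 CPM, the highest of the 17 compared groups in each library. The part of melanocyte RNA in the Rarb level of that group was not tested. Of the 4 sets of cells with Rarb, 3 held no called doublet and the fourth held 3 (5.17%). Chosen after the values were seen, Bach2 (a transcriptional repressor) was at 3913 CPM in the LPC-like cells with at least 3 Rarb UMIs and 1766 CPM in those with none in PADI4 WT, a log2 difference of 1.15 (1.10 to 1.19), and at 4704 and 2290 CPM in the library labelled PADI4 cKO (1.04, 1.00 to 1.07). The homeobox gene Cux1, a marker of the GL, was likewise higher in cells with Rarb, by 0.63 and 0.59, and in the GL-like Kit/Myb group by 0.53 and 0.62. Cells with Rarb were deeper (median 27606 and 27034 UMIs, against 17412 and 18342), and the part of depth in these differences was not tested.

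**Figure D1:**
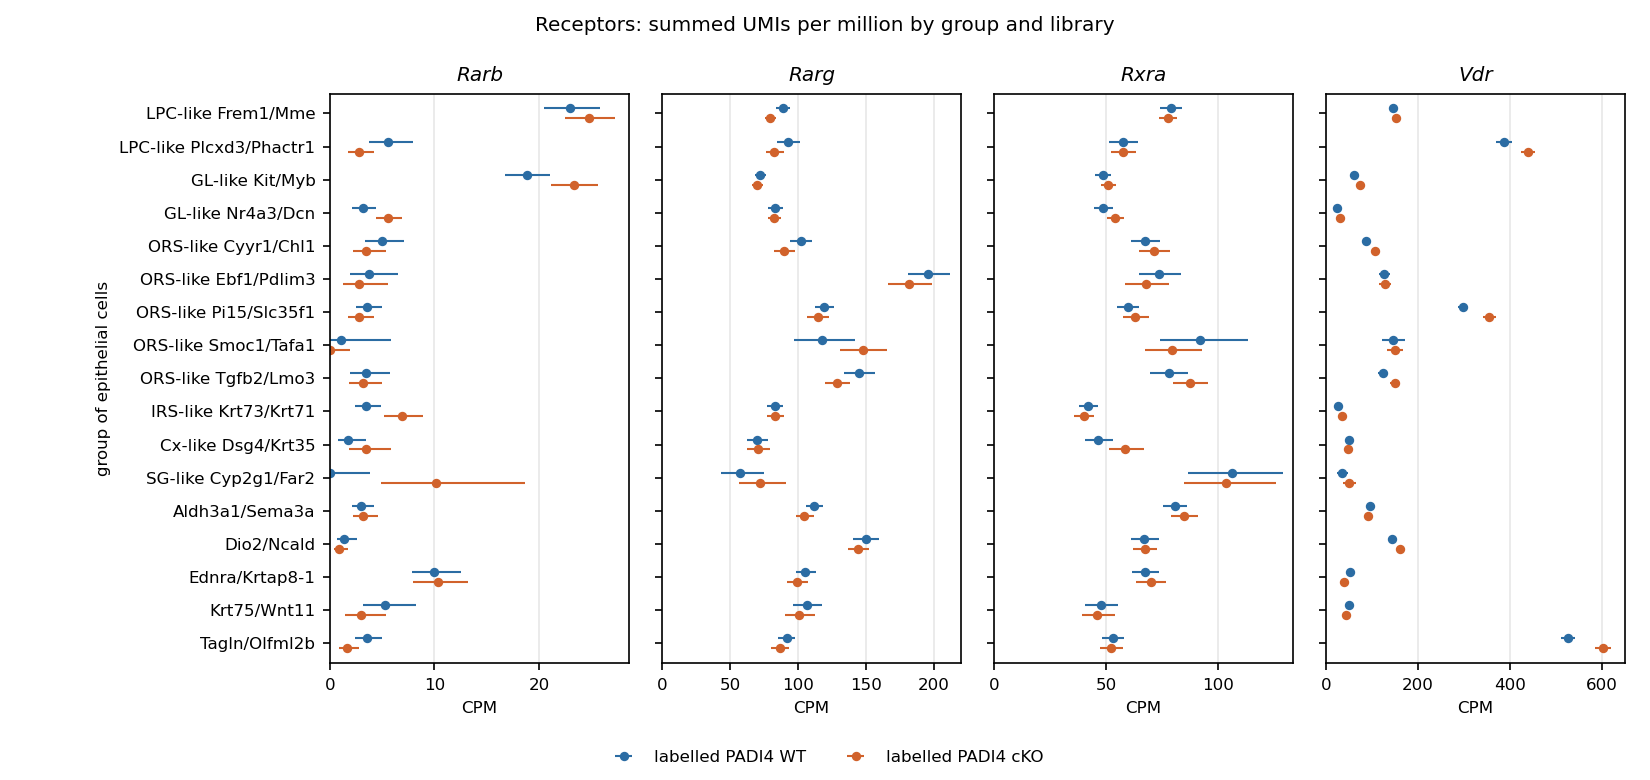
Levels of the 4 receptor genes among the members in CPM (horizontal axes, linear and starting at 0) in the 17 compared groups of epithelial cells (rows). Points are sums over all cells of a group in PADI4 WT (blue) and in the library labelled PADI4 cKO (orange), and bars are exact 95% Poisson intervals. Vdr peaks at 526 and 602 CPM in the Tagln/Olfml2b group and Rarb at 23.0 and 24.8 CPM in the LPC-like Frem1/Mme group, while Rarg and Rxra are spread over all groups.

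Rarg, the main retinoic acid receptor of the epidermis, was present in every group and varied little. It was highest in the ORS-like Ebf1/Pdlim3 group at 196 CPM (181 to 212) and 182 CPM (167 to 198), 1.99-fold (1.83 to 2.15) and 1.95-fold (1.78 to 2.13) above the other epithelial cells. This step depended on how cells were chosen, since the log2 fold of 0.99 in PADI4 WT came to 0.06 with a lower limit of 1000 UMIs per cell and to 0.60 for cells gated on ORS marker UMIs. That group exceeded the next beyond counting error in both libraries. Groups with ORS markers also took the next 3 ranks in each, among them Dio2/Ncald at 150 CPM in PADI4 WT and the ORS-like Smoc1/Tafa1 group at 148 CPM in the library labelled PADI4 cKO. The lowest levels were 57.7 CPM in the SG-like group of PADI4 WT and 70.1 CPM in the GL-like Kit/Myb group of the library labelled PADI4 cKO, so that the highest was 3.39 times the lowest in the first and under 3 times in the second. Rxra, the common partner of these receptors, was flatter. Its range ran from 42.0 and 40.1 CPM in the IRS-like group to 106 CPM (86.6 to 129) and 104 CPM (84.5 to 126) in the SG-like group, which did not differ beyond counting error from the group ranked next in either library. Both genes kept their order between the libraries (Spearman 0.95 for Rarg and 0.93 for Rxra).

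The binding proteins were rare in the HF epithelium. Crabp1 had 38 and 25 UMIs in all epithelial cells, 0.299 and 0.193 CPM, and no compared group exceeded 6 UMIs in PADI4 WT or 7 UMIs in the library labelled PADI4 cKO, so its order could not be read. Crabp2 had 330 and 196 UMIs, and 31.5% and 54.1% of these came from the ORS-like Smoc1/Tafa1 group, which held 0.752% and 1.52% of all UMIs. There it was at 109 CPM (88.8 to 132) and 53.9 CPM (44.1 to 65.1), 60.9-fold (47.7 to 76.9) and 76.2-fold (57.1 to 102) above the other cells. The variance of its count per cell in this group was 6.05 and 3.60 times its mean, a spread that the intervals leave out. Gating on ORS marker UMIs took in many more cells and gave 5.93 and 4.78 CPM, a log2 fold of 1.62 in PADI4 WT, compared with 5.93 for the clustered group. The gate on upper HF markers was higher, at 17.6 and 12.3 CPM, and that on interfollicular epidermis markers was at 15.9 and 1.56 CPM. The Smoc1/Tafa1 group itself held 4 upper HF markers beside 5 ORS markers. Among the compared groups, the ORS-like Ebf1/Pdlim3 group came second at 11.5 and 12.3 CPM, and every other one was at 3.04 CPM or below. Within the Smoc1/Tafa1 group 25 of 92 cells (27.2%) and 38 of 168 cells (22.6%) had a Crabp2 UMI, against 15 of 526 (2.85%) and 8 of 665 (1.20%) in the Dio2/Ncald group, at median depths of 9209 and 10394 UMIs against 11286 and 12475. The 14 and 15 cells with at least 3 had more of the group's own leading gene Smoc1 (854 against 125 CPM in cells with none, and 786 against 75.4 CPM) and of the netrin receptor gene Unc5d (443 against 31.3 CPM, and 565 against 20.3 CPM). These genes were chosen after their values were seen and were used to cluster the cells. In a group of 45 cells led by Kcnip4/Lsamp, which the library labelled PADI4 cKO did not contain, Crabp2 reached 121 CPM (99.6 to 146) in PADI4 WT. These cells count among the other cells of PADI4 WT and in the total behind the share of 31.5%. Without them, a choice made after the data had been seen, the log2 fold of the Smoc1/Tafa1 group in PADI4 WT was 6.88 rather than 5.93. It was 6.25 in the library labelled PADI4 cKO, so which library had the larger fold depended on these cells.

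Of the enzymes, Aldh1a3 was highest in the Ednra/Krtap8-1 group and the Cx-like group. Its level was 36.6 CPM (32.4 to 41.2) and 11.1 CPM (8.64 to 14.2) in the Ednra/Krtap8-1 group, whose markers were those of the GL and the Med, and 14.8 CPM (11.5 to 18.7) and 8.13 CPM (5.52 to 11.5) in the Cx-like group. In PADI4 WT both steps, to the Cx-like group and from it to the next, were beyond counting error, and in the library labelled PADI4 cKO only the second was. Every other compared group was at 6.94 CPM or below, the GL-like groups among them (2.29 and 1.89 CPM in Kit/Myb, 2.74 and 1.29 CPM in Nr4a3/Dcn). The Ednra/Krtap8-1 group lay 11.1-fold (9.47 to 13.0) and 6.81-fold (5.06 to 8.97) above the rest. The variance of the Aldh1a3 count per cell in this group was 4.16 and 2.72 times its mean, which the counting error of these steps leaves out. Cells gated on GL marker UMIs instead had 8.12 and 2.90 CPM, a log2 fold of 1.46 in PADI4 WT, compared with 3.47 for the clustered group. Within it, cells with an Aldh1a3 UMI also had more Stra6, the cell surface receptor for retinol uptake, at 28.8 CPM (21.7 to 37.6) against 15.4 CPM (12.3 to 19.0) in PADI4 WT and at 32.3 CPM (20.4 to 48.4) against 13.4 CPM (10.5 to 16.9) in the other library. Of all groups, Stra6 was also highest in this one, at 18.8 and 15.6 CPM. In the 41 cells of PADI4 WT with at least 3 Aldh1a3 UMIs, 8 were called doublets (19.5%), compared with 23 of 309 (7.44%) without Aldh1a3. Without called doublets the log2 fold of this group over the rest was 3.43.

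Cyp24a1 followed Vdr. It was highest in the same groups, at 16.3 CPM (13.8 to 19.2) and 26.9 CPM (23.4 to 30.9) in the Tagln/Olfml2b group and at 12.5 CPM (9.70 to 16.0) and 20.1 CPM (17.0 to 23.7) in the LPC-like Plcxd3/Phactr1 group. The step between them was beyond counting error in the library labelled PADI4 cKO only. Together with the ORS-like Ebf1/Pdlim3 group of the library labelled PADI4 cKO (6.69 CPM) these were the only values above 5 CPM. The Tagln/Olfml2b group held 51.4% and 40.9% of all Cyp24a1 UMIs. The variance of the Cyp24a1 count per cell in this group was 3.20 and 3.66 times its mean, a spread that the intervals leave out. Vdr and Cyp24a1 correlated across the 17 groups with a Pearson r of 0.87 and 0.80 on the log2(CPM + 1) scale, and a Spearman rho of 0.87 and 0.67. This r was the highest among the 28 pairs of members in each library, with all groups of a library sharing its preparation and depth. The third group in Vdr did not share this. The ORS-like Pi15/Slc35f1 group, with 296 and 355 CPM of Vdr, had only 2.63 CPM (1.70 to 3.88) and 2.61 CPM (1.57 to 4.08) of Cyp24a1. Within a group, cells with and without a Cyp24a1 UMI were then compared. In the Tagln/Olfml2b group the variance of the Vdr count per cell was 4.36 and 4.72 times its mean. The intervals of these comparisons leave out that spread, and whether the differences in Vdr exceed it was not tested. Cells of the Tagln/Olfml2b group with a Cyp24a1 UMI had 582 CPM of Vdr against 516 CPM in those without, a log2 difference of 0.17 (0.06 to 0.28), and 655 against 586 CPM in the library labelled PADI4 cKO (0.16, 0.06 to 0.26). The cells with Cyp24a1 were deeper there (median 19130 against 15791 and 19431 against 16088 UMIs). In the LPC-like Plcxd3/Phactr1 group these values were 480 against 370 CPM (0.38, 0.21 to 0.54) and 501 against 420 CPM (0.26, 0.14 to 0.37), at nearly equal depth (median 20542 against 20116 and 20758 against 20312 UMIs). In the LPC-like Frem1/Mme group they were 234 against 145 CPM (0.71, 0.17 to 1.17) and 303 against 151 CPM (1.02, 0.65 to 1.34), from 5 and 9 cells with Cyp24a1 that were deeper (median 31423 against 18147 and 27285 against 18858 UMIs). Between cells with at least 3 Cyp24a1 UMIs and cells with none, Vdr differed by 0.07 (−0.16 to 0.28) and 0.18 (0.03 to 0.32) in the Tagln/Olfml2b group and by 0.52 (0.20 to 0.81) and 0.44 (0.21 to 0.66) in the LPC-like Plcxd3/Phactr1 group.

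**Figure D2:**
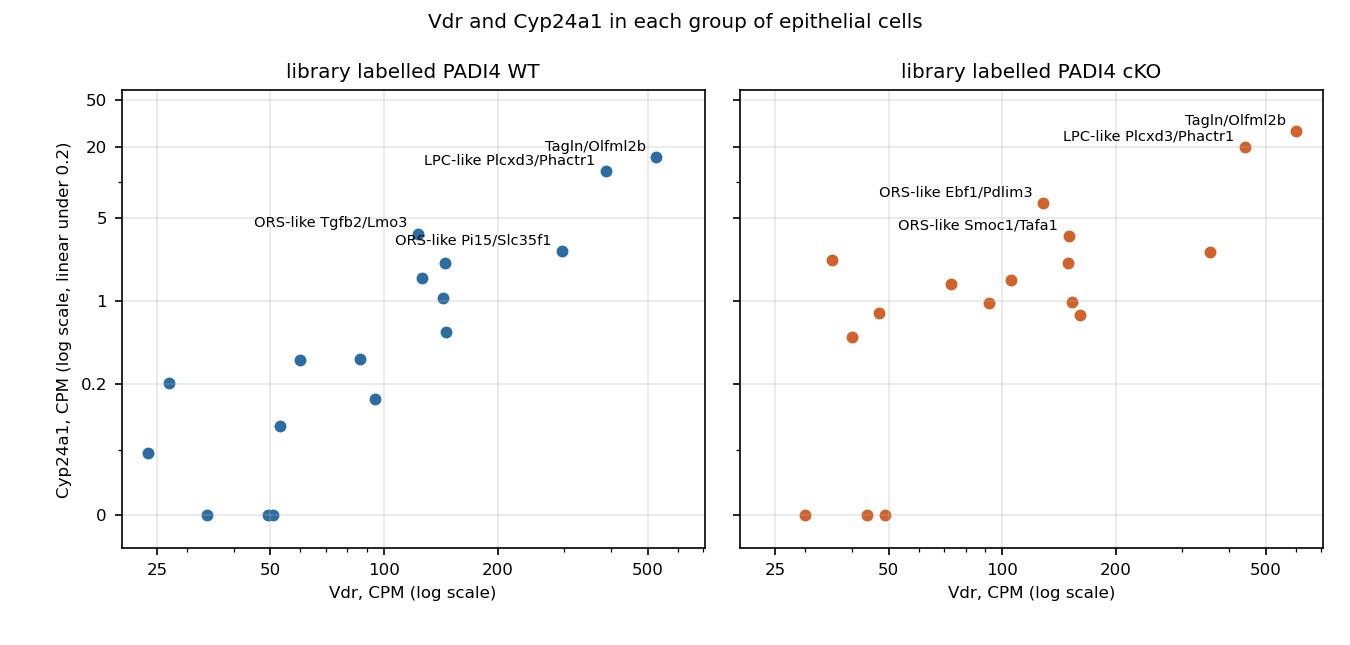
Vdr (horizontal axis, log scale) against Cyp24a1 (vertical axis, log scale, linear under 0.2 CPM) in CPM, with 1 point for each of the 17 compared groups in PADI4 WT (left) and in the library labelled PADI4 cKO (right), and with the names of the 4 groups highest in Cyp24a1. The Tagln/Olfml2b and LPC-like Plcxd3/Phactr1 groups lie at the upper right in both, and the unlabelled point at 355 CPM of Vdr on the right is the ORS-like Pi15/Slc35f1 group.

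**Figure D3:**
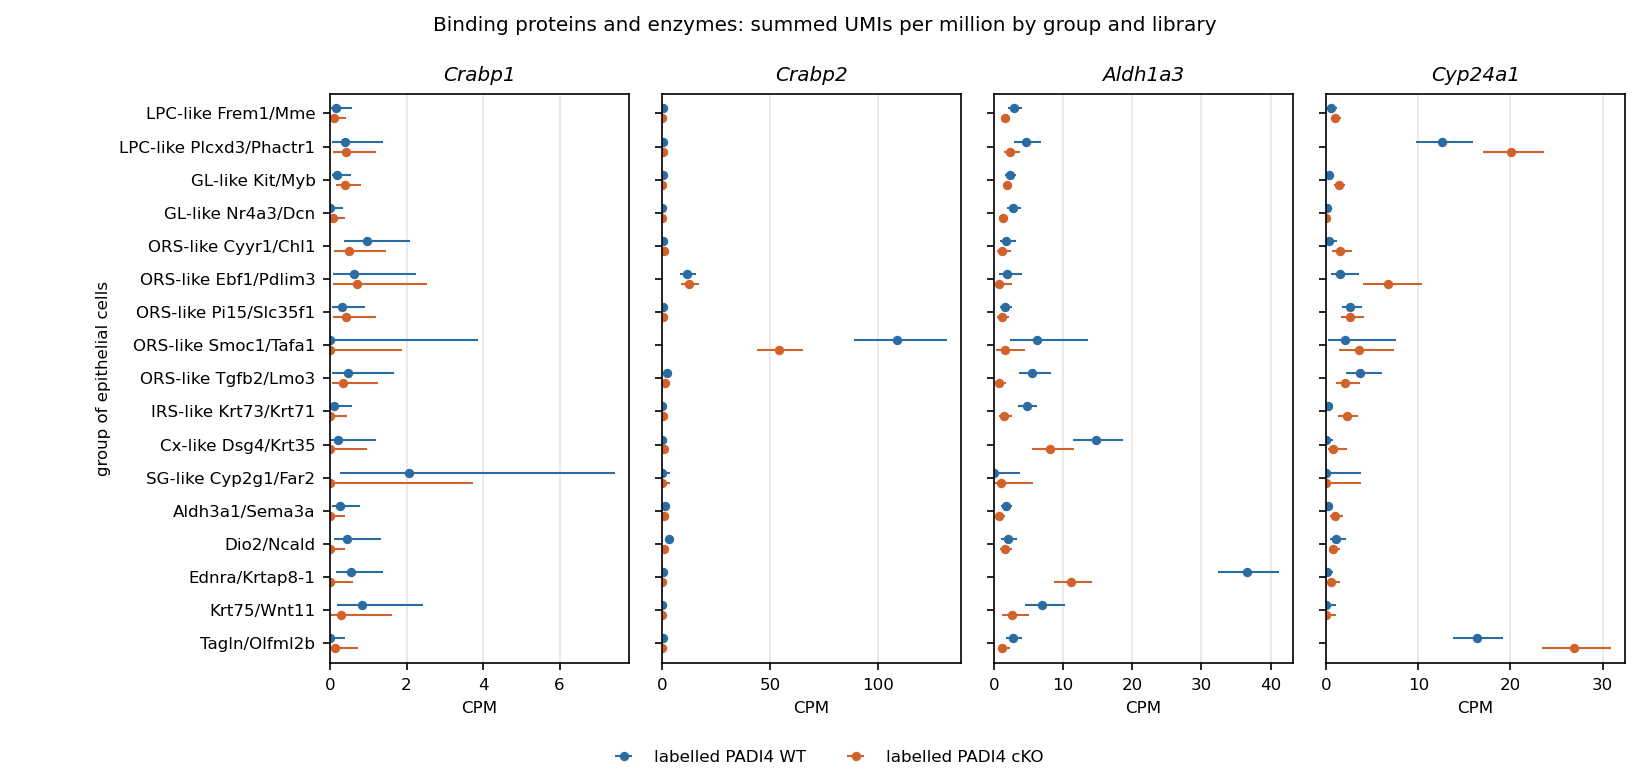
Levels of the binding proteins and enzymes in CPM (horizontal axes, linear and starting at 0) in the 17 compared groups (rows), with exact 95% Poisson intervals, for PADI4 WT (blue) and the library labelled PADI4 cKO (orange). Crabp2, Aldh1a3, and Cyp24a1 each stand out in 1 or 2 groups, and Crabp1 is near 0 in all.

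To ask how the members differed between the libraries, log2 ratios were taken over all epithelial cells, with PADI4 WT as the denominator. Of the 7 members with at least 100 UMIs, 3 lay past 0.5 in size, compared with 5.18% of the 14900 genes tested in the same way, whose median ratio was −0.01. Aldh1a3 was lower, at 5.23 CPM in PADI4 WT and 2.09 CPM in the library labelled PADI4 cKO (log2 ratio −1.33, −1.54 to −1.12). Only 1 of the 17 groups had enough Aldh1a3 UMIs for a ratio of its own. With the groups of fewer UMIs included, Aldh1a3 was lower in 16 of 17, a count that was not set against all genes. Free RNA could contribute up to 1.10 CPM of Aldh1a3 in PADI4 WT, where the ORS-like Pi15/Slc35f1 group, for example, had 1.58 CPM. The part of free RNA in this count was not tested. Cyp24a1 was higher, at 2.28 and 3.85 CPM (0.76, 0.55 to 0.97). Crabp2 was lower, at 2.59 and 1.51 CPM (−0.78, −1.04 to −0.52), but 110 of its 330 UMIs in PADI4 WT came from the 45 cells led by Kcnip4/Lsamp. Without that group, an alternative chosen after the data had been seen, Crabp2 was at 1.74 and 1.51 CPM (−0.20, −0.49 to 0.08), and 2 of 7 members lay past 0.5, compared with 5.03% of all genes. Rarb stayed under the threshold at 0.31 (0.19 to 0.43), as did Vdr at 0.16 (0.13 to 0.19), Rarg at −0.09 (−0.12 to −0.05), and Rxra at 0.05 (0.01 to 0.10). Crabp1, with too few UMIs, was at −0.62 (−1.42 to 0.14).

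Within groups, 58 pairs of a member and a group had at least 100 UMIs. Of these 3 lay above 0.5, compared with 2.08% of all gene and group pairs, and 2 lay below −0.5, compared with 2.56%. The pairs above were Cyp24a1 in the Tagln/Olfml2b group (0.72, 0.41 to 1.04) and in the LPC-like Plcxd3/Phactr1 group (0.68, 0.25 to 1.12) and Rarb in the GL-like Nr4a3/Dcn group (0.82, 0.22 to 1.47). Those below were Aldh1a3 in the Ednra/Krtap8-1 group (−1.71, −2.12 to −1.32) and Crabp2 in the ORS-like Smoc1/Tafa1 group (−1.01, −1.42 to −0.61). Vdr was higher in the library labelled PADI4 cKO in 13 of 17 groups, but by at most 0.40 in the 16 groups tested. Rarg was lower in 13 of 17. Pathway genes reached like counts, with Ncoa1 higher in 13 of 17 and Ncoa3 lower in 14 of 17, and these counts were not made over all genes.

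Since the libraries also differed in sex-linked transcripts, the members were compared by these. Inside the PADI4 WT library, cells with only Y-linked UMIs (4990) were compared with cells with only Xist UMIs (2079), a comparison chosen after the data had been seen. Past 0.5 in size lay 3 of 7 members, compared with 5.66% of all genes, namely Crabp2 (higher in the cells with Y-linked UMIs by 0.91, 0.49 to 1.37), Aldh1a3 (0.86, 0.55 to 1.20), and Cyp24a1 (−0.78, −1.16 to −0.39). Of the 45 cells led by Kcnip4/Lsamp, 38 had only Y-linked UMIs, and without that group Crabp2 was at 0.61 (0.13 to 1.15). This comparison shares the PADI4 WT cells with that between the libraries, so the values stand side by side only. Vdr was at 131 CPM in the cells with Y-linked UMIs and at 158 CPM in those with Xist UMIs (−0.27, −0.32 to −0.22). Between the libraries, with cells of only Xist UMIs on both sides, 1 of 7 members lay past 0.5, compared with 4.86% of all genes. That member was Aldh1a3, at −0.63 (−0.96 to −0.27). Crabp2 was then at −0.18 (−0.62 to 0.30), or 0.15 (−0.32 to 0.68) without the Kcnip4/Lsamp group, Cyp24a1 at 0.30 (−0.01 to 0.64), Vdr at −0.02 (−0.06 to 0.03), and Rarb at 0.48 (0.26 to 0.70). Genotype, sex, and animal cannot be told apart in the full comparison of the libraries.

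**Figure D4:**
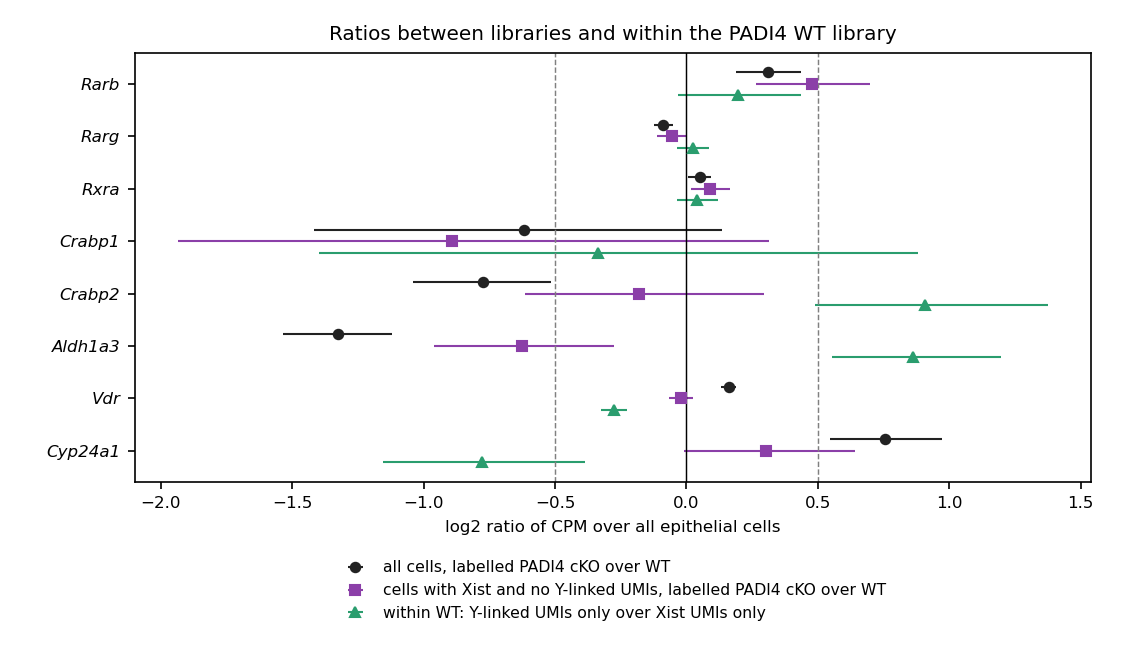
Log2 ratios of CPM over all epithelial cells (horizontal axis) for the 8 members (rows), with exact 95% intervals. Circles compare all cells of the library labelled PADI4 cKO with PADI4 WT, squares compare cells with only Xist UMIs in the same way, triangles compare cells with only Y-linked UMIs with cells with only Xist UMIs inside PADI4 WT, and dashed lines mark −0.5 and 0.5. For Aldh1a3 and Crabp2 the circle lies on the left (−1.33 and −0.78, the latter −0.20 without the Kcnip4/Lsamp group) and the triangle on the right (0.86 and 0.91), and for Cyp24a1 the reverse (0.76 and −0.78).

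The 5 pairs past the threshold differed in this respect. Aldh1a3 in the Ednra/Krtap8-1 group was at 11.4 CPM (6.74 to 18.0) in the 96 cells of PADI4 WT with only Xist UMIs, at 47.8 CPM (41.6 to 54.6) in the 249 with only Y-linked UMIs, and at 11.5 CPM (8.93 to 14.6) in the 289 cells with only Xist UMIs of the library labelled PADI4 cKO. Between the libraries the Xist cells of this group had a log2 ratio of −0.01 (−0.75 to 0.86), and the high level was found in the Y-linked cells of PADI4 WT. Crabp2 in the ORS-like Smoc1/Tafa1 group ran the same way, at 61.0 CPM (34.1 to 101), 123 CPM (97.7 to 152), and 53.9 CPM (44.1 to 65.1), although the first value rests on 21 cells. Cyp24a1 in the LPC-like Plcxd3/Phactr1 group was at 16.8, 6.01, and 20.3 CPM, the low value being that of the Y-linked cells. Cyp24a1 in the Tagln/Olfml2b group did not divide in this way. It was at 17.6 CPM (12.9 to 23.6) and 18.3 CPM (14.7 to 22.4) in the Xist and Y-linked cells of PADI4 WT and at 27.1 CPM (23.5 to 31.1) in the Xist cells of the library labelled PADI4 cKO, a log2 ratio of 0.61 (0.15 to 1.12) between the Xist cells. Rarb in the GL-like Nr4a3/Dcn group was at 3.24 CPM (1.48 to 6.15), 3.33 CPM (2.11 to 4.99), and 4.62 CPM (3.55 to 5.91), and its ratio between the Xist cells, 0.44, had an interval from −0.50 to 1.70.

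**Figure D5:**
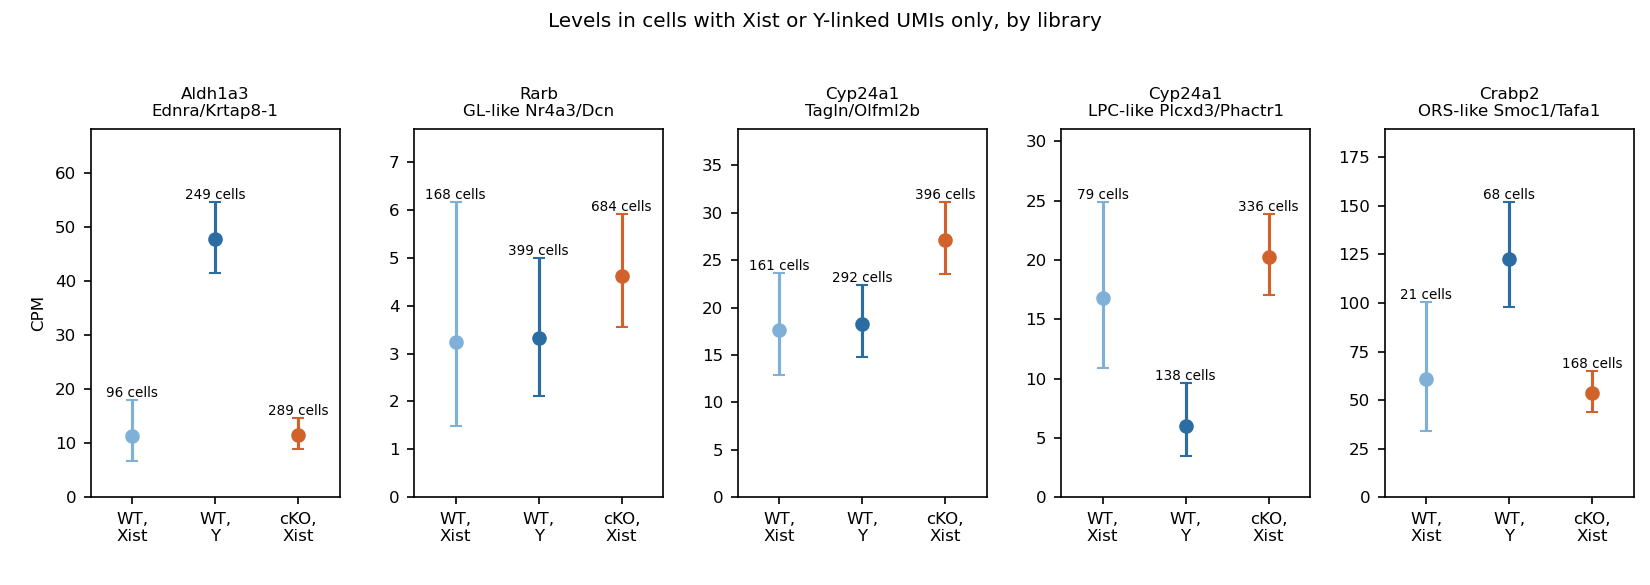
Levels in CPM (vertical axes, starting at 0) of the 5 member and group pairs past 0.5 in size, in cells of PADI4 WT with only Xist UMIs (light blue), cells of PADI4 WT with only Y-linked UMIs (dark blue), and cells with only Xist UMIs of the library labelled PADI4 cKO (orange), with exact 95% Poisson intervals and the number of cells. For Aldh1a3 the Xist cells of both libraries lie at 11.4 and 11.5 CPM and the Y-linked cells at 47.8 CPM, whereas for Cyp24a1 in the Tagln/Olfml2b group both sets of PADI4 WT lie near 18 CPM and the other library at 27.1 CPM.

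The other genes of both pathways moved little between the libraries. Of 63 genes in 9 lists, 41 had at least 100 UMIs, and none lay above 0.5 (1.58% of all genes did) and 3 lay below −0.5 (3.6% of all genes did), with a median log2 ratio of −0.02, against −0.01 over all genes tested. All 3 were from the list of retinol dehydrogenases and retinal reductases, which had 13 tested genes with a median of −0.07. They were Dhrs9 (−0.82, −1.16 to −0.49), Adh7 (−0.61, −1.02 to −0.21), and Rdh12 (−0.56, −0.72 to −0.41). None of them lay below −0.5 within a compared group that had enough UMIs. Adh7 was at 0.66 and Dhrs9 at −0.44 in the 1 such group of each, and Rdh12 at −0.48 and −0.23 in 2 groups. Dhrs9 was concentrated in the Tagln/Olfml2b group, with 18.0 and 13.2 CPM against 1.63 and 0.919 CPM over all epithelial cells, and Adh7 was highest in the IFE-like group (12.7 and 13.3 CPM), which held 319 cells in PADI4 WT and 38 in the other library. The ubiquitous alcohol dehydrogenase Adh5 (−0.02) and the retinal reductase Dhrs4 (−0.04) led that list by UMIs.

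In the remaining lists no tested gene was past the threshold. The other receptors were Rara (54.5 and 56.7 CPM, 0.06) and Rxrb (25.9 and 24.4 CPM, −0.09). Among carriers and uptake genes, 5 of 9 were tested with a median of −0.34, led by Fabp5, which can carry retinoic acid (740 and 626 CPM, −0.24), and the acyltransferase Dgat1 (0.00). The retinaldehyde dehydrogenases other than Aldh1a3 were nearly absent, with 27 and 13 UMIs for Aldh1a1 and 10 and 4 for Aldh1a2. So were the hydroxylases that degrade retinoic acid. Cyp26a1, whose promoter carries the same DR5 core as that of Rarb, had 1 UMI in PADI4 WT and 0 in the other library, and Cyp26b1 had 41 and 22. On the vitamin D side, 3 of 7 synthesis and transport genes were tested (median −0.02), led by Dhcr7, which draws the precursor into cholesterol (16.6 and 16.4 CPM, −0.02), and Cyp27a1 (0.01). The 8 partners and corepressors of Vdr had a median of 0.01, led by Ncor1 (305 and 308 CPM, 0.02) and Ncoa1 (0.08). Among other RXR partners 6 of 7 were tested (median −0.04), led by the thyroid hormone receptors Thra (−0.03) and Thrb (0.13). Of the further vitamin D response genes 4 of 9 were tested (median −0.08), led by Pdia3 (0.05) and the calcium channel gene Trpv6 (3.78 and 3.92 CPM, 0.05), whose level, unlike that of Cyp24a1, was highest in the ORS-like Smoc1/Tafa1 group (19.9 and 25.4 CPM) rather than in the groups with most Vdr.

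The genes most like each member across the 17 groups of PADI4 WT were taken among 12089 genes, with the correlation of log2(CPM + 1) in the library labelled PADI4 cKO given second. For Vdr they were Fblim1 (0.95 and 0.95), the collagen gene Col4a2 (0.94 and 0.96), and the kinase gene Prkca (0.93 and 0.94), and for Cyp24a1 the elastic fiber gene Fbln5 (0.89 and 0.83), Prkg1 (0.88 and 0.46), and Cdo1 (0.88 and 0.79). Crabp2 went with Unc5d (0.97 and 0.93), Ltbp2 (0.96 and 0.90), and Guf1 (0.93 and 0.34). Rxra went with the lactate transporter gene Slc16a1 (0.92 and 0.91), Nfia (0.90 and 0.83), and 1190005I06Rik (0.88 and 0.78), and Rarg with Zfp532 (0.94 and 0.74), S100a4 (0.93 and 0.84), and Cdc42bpa (0.93 and 0.90). Those of Aldh1a3 were Sh3bp5 (0.90 and 0.63), Ppp2r5a (0.87 and 0.71), and Depdc5 (0.86 and 0.84). The partners of Rarb, namely Gm31816 (0.81 and 0.45), Mtfmt (0.80 and −0.11), and Tgfb1 (0.80 and 0.29), had low correlations in the second library, whereas those of Vdr kept theirs above 0.9.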

How the data were processed

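Single-cell libraries of sorted keratinocytes, 1 for each genotype label, were compared. The deposited values are raw UMI counts per gene and droplet, which the authors made with Cell Ranger 7.1.0 per the file headers, on mm10 per the labels' processing notes. Whether introns and strand entered the counting is not given in the sources used here. A droplet was kept if its UMIs lay between 2000 and 60000, its genes between 1000 and 8000, its mitochondrial share under 20%, its hemoglobin share under 1%, and its ribosomal share within the 5th to 99th percentile (8070 and 7393 cells, with medians of 14670 and 16208 UMIs). Cells were clustered with Scanpy 1.11.5 (1000 variable genes without the members, pathway, cell cycle, Padi, and sex-linked genes, 50 components, 15 neighbors, Leiden resolution 1). A marker counted at 5 CPM and 1.5-fold over the remaining cells, and a group took the name of the list with most such markers (at least 3) unless another list had as many or had more of the 10 leading genes. A muscle name was not used for the Tagln/Olfml2b group, which had Krt5 and Krt14. Clusters with at least 4 markers of a non-epithelial type were set apart (50 and 27 dermal cells, 26 and 10 melanocytes). Doublets (3.58% and 4.06% of cells) were kept in the main values. UMIs were summed per group and library. Ratios used a prior of 0.5 UMI, 95% exact conditional intervals, and a minimum of 100 UMIs, and a gene was counted as past the threshold at a log2 ratio of 0.5 in size. With 1 library per genotype no test was made, and intervals cover counting error only. The scripts were tested on simulated data.

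The members and lists were chosen with earlier results of these data known. Named genes were all members, the 2 genes with most UMIs and any past the threshold in each pathway list, and the 3 genes most correlated with each member that had at least 200 UMIs. The comparison of Xist and Y-linked cells within PADI4 WT, the comparison of cells with at least 3 UMIs of a member, the rule for non-epithelial clusters, the doublet threshold, and the minimum of 50 cells per group were chosen after the data had been seen. The 16 alternatives covered depth limits, doublets, resolution, cell cycle correction, gating on marker UMIs, thinning, empty droplets, scaling, cells with only Xist UMIs, the UMI minimum, and, added after the data had been seen, leaving out the Kcnip4/Lsamp group, found in 1 library.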

Additional observations from a re-analysis of the deposited data

Results flagged for a closer look

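Of the cells set apart as non-epithelial, melanocytes carried the highest Rarb of any cluster, at 778 CPM (685 to 879; 24 of 26 cells) in PADI4 WT and 649 CPM (541 to 773; 10 of 10 cells) in the library labelled PADI4 cKO, above the 1.77 and 0.793 CPM that free RNA could contribute. A dermal cluster led by Col3a1 and Chrm3 held 50 and 27 cells. In PADI4 WT it had Crabp2 at 54.5 CPM, Crabp1 at 26.7 CPM, and Rarb at 19.4 CPM. In the library labelled PADI4 cKO it had Crabp1 at 12.6 CPM and Aldh1a3 at 12.6 CPM, each from 6 UMIs. These clusters entered no comparison of the report.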

How the results depend on the processing

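The level of Rarb in its highest group reversed when cells were gated on marker UMIs, to a log2 fold of −1.20 from 1.98, and that of Rarg came to 0.06 with a lower limit of 1000 UMIs per cell. The number of members past 0.5 between the libraries was 3 and became 1 with cells thinned to 2000 UMIs and 1 with cells of only Xist UMIs. The pairs above 0.5 were 3 and became 6 with a limit of 1000 UMIs per cell, 1 at resolution 0.5, 0 when thinned, 5 with Xist cells only, 5 with a minimum of 50 UMIs, and 0 with a minimum of 500. The pairs below were 2 and became 0 when thinned, 1 with Xist cells only, 6 with a minimum of 50 UMIs, and 0 with a minimum of 500. Thinned cells and a higher minimum leave fewer pairs to test. The 7 members with the same highest group in both libraries became 4 with limits of 1000 and of 4000 UMIs per cell, at resolution 0.5, and when thinned. For the other changes the cause was not tested. Without the Kcnip4/Lsamp group, the members past 0.5 were 2, and the log2 fold of Crabp2 in its highest PADI4 WT group was 6.88, from 5.93. Over 14 alternatives the log2 ratio ran from −1.67 to −0.63 for Aldh1a3, from −1.03 to −0.18 for Crabp2, from 0.30 to 0.77 for Cyp24a1, from 0.19 to 0.57 for Rarb, and from −0.02 to 0.22 for Vdr. No paired analysis was possible because each genotype label has 1 library. Depth limits Crabp1, Crabp2, and Cyp24a1 in the groups where they had few UMIs.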

Other observations

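Other genes of retinoid handling, chosen after their values were seen, are given with their highest groups. Rbp2, a cellular retinol-binding protein, was highest in the Krt75/Wnt11 group, at 70.0 and 62.6 CPM. In this group Rbp2 exceeded its level over all epithelial cells (3.01 and 2.38 CPM). In the SG-like group, Dhrs3, which returns retinaldehyde to retinol, was at 115 and 106 CPM, Sdr16c6 at 971 and 871 CPM, and Fabp5 at 5846 and 5462 CPM. Cyp26b1, nearly absent from the epithelium, was at 48.5 and 39.7 CPM in the dermal cluster led by Col3a1 and Chrm3.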
